A study of Mus musculus with 4 samples.

Results

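The cell barcodes described here came from a 10x droplet library of nuclei from mouse epigonadal white fat, carried no label in the authors' table, and held RNA of genes that mark macrophages. Barcodes were chosen by measured values of the same library: a barcode was included when under 20% of its RNA molecules (counted as unique molecular identifiers, UMIs) were mitochondrial, when at least 3 of 8 macrophage or leukocyte genes had a UMI (Mrc1, Adgre1, F13a1, Csf1r, Cd163, Mertk, Dock2 and Ptprc), and when fewer than 3 of 8 fibroblast genes did (Pdgfra, Dcn, Col1a1, Col3a1, Dpp4, Pi16, Fbn1 and Col15a1). This rule found 292 barcodes, called macrophage-rule barcodes below, among 2919 unlabelled low-mitochondrial barcodes and 5043 barcodes of the library in all. The epigonadal library came from naive wild-type males of 4 months. The sources used here give neither its number of animals nor its strain. The protocol, written for thymus, digested tissue with DNase I and collagenase II, spun it in steps, and took nuclei from the floating white layer. The authors labelled 1564 nuclei of the library with 5 names, Ad IIa, Ad IIb and Ad IIc, and Ad Ia and Ad Ib. A thymic library from 6 pooled thymi of 4-month wild-type naive C57/BL6 males on standard chow was used for a single comparison.

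Macrophages of white fat engulf dying adipocytes and stray lipid, digest them in lysosomes, and take up iron and debris from the tissue. A population that lines blood vessels is known for scavenger receptors such as LYVE1, CD163 and the mannose receptor. Another gathers around adipocytes, handles lipid through TREM2, and carries CD9, osteopontin and galectin-3. Both depend on signals through the receptor CSF1R and on the transcription factor PU.1, the product of Spi1.

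PU.1 binds a purine-rich motif, here searched as GAGGAAGT, which reads ACTTCCTC on the other strand. Promoters (250 bases before to 50 after a gene's start, RefSeq, GRCm38.p6) were found for 17 of the 25 genes that led the macrophage-rule barcodes over the other unlabelled barcodes. They are shown because those genes had high ratios in the summed macrophage-rule barcodes, though not all in the same clusters of them. The motif stood in the promoters of 2 of the 17, Hpgds and C1qc, and in those of 997 of 27025 genes overall (3.69%). A MAF-type motif, TGCTGACT or AGTCAGCA on the other strand, stood in the promoters of 436 of the 27025 genes (1.61%) and of 0 of the 17. Each match is a match of letters only, and these motifs differ in letters and do not overlap. Both promoters are given 5′ to 3′ on the gene's strand (minus for both genes), with the motif in capitals. The gene's start below is the one its promoter window was built on, which need not be the gene's outermost start. Hpgds spans 65117293 to 65144981 on chromosome 6, so its window, motif included, lies within the gene's own span.
Hpgds, chr6:65144681-65144980, motif starting 49 bases before the gene's start: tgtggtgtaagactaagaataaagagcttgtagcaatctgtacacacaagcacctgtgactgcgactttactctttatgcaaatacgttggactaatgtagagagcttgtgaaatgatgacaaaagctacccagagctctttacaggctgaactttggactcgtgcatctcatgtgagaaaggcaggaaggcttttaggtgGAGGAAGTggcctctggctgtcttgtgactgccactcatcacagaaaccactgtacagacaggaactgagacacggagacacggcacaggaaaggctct
C1qc, chr4:136892865-136893164, motif starting 195 bases before the gene's start: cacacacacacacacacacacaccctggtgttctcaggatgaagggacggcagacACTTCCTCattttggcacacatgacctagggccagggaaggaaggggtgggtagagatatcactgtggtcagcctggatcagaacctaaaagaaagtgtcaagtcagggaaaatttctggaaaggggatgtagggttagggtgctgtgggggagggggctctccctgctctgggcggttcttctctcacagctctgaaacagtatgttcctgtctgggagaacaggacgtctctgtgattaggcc

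The 292 barcodes held 451937 UMIs, with a median of 1078.5 per barcode (501 to 10931), 681 detected genes, and 6.56% mitochondrial UMIs. The other 2627 unlabelled low-mitochondrial barcodes had a median of 785 UMIs, 440 genes and 9.79% mitochondrial UMIs, and the labelled nuclei 966 UMIs, 557 genes and 5.19%. Macrophage-rule barcodes made up 6.61% of the unlabelled barcodes with 500 to 1000 UMIs, 15.2% of those with 1000 to 2000, 18.1% of those with 2000 to 4000, and 14.5% of those with 4000 or more, so the shallowest barcodes were chosen least often. Of the 292, 12 (4.11%) had a barcode sequence that also occurred in the thymic library, and in 0 of these was the thymic barcode under 20% mitochondrial. Each group was 1 library or a part of 1, so no difference below has a replicate check or a p-value. Levels are CPM, a group's UMIs of a gene divided by its nuclear-encoded UMIs and scaled to 1e6, ratios are log2 of CPM with 0.5 UMI added to each sum, and the ranges in brackets are exact 95% intervals that cover counting error only.

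The 8 genes of the rule are given first as a description, because they chose the barcodes. Mrc1, the mannose receptor, had 563 UMIs (1342 CPM) in the macrophage-rule barcodes, 133 (44.5 CPM) in the other unlabelled barcodes and 73 in labelled nuclei. Cd163, the receptor for haemoglobin bound to haptoglobin, had 158, 16 and 13 UMIs. F13a1, a clotting factor chain made by tissue macrophages, had 544, 118 and 54. Csf1r had 126, 25 and 8, and Adgre1, which encodes the surface protein F4/80, had 229, 38 and 15. Most UMIs of these 5 genes over the 3 groups lay in the chosen barcodes, which the rule itself brings about. It also held 3 genes of wider expression. Mertk, a receptor for dying cells, had 219 UMIs against 204 and 289. Dock2 and Ptprc, which all leukocytes express, had 702 against 1173 and 400 against 1324 UMIs in the other unlabelled barcodes, so most of their unlabelled UMIs lay outside the rule.

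At the edge of the rule, the 414 unlabelled barcodes with 2 of the 8 genes held 1559 CPM (1457 to 1667) of a list of 25 further macrophage genes, and the 105 with exactly 3 held 4603 CPM (4240 to 4989). The 187 barcodes with 4 or more genes held 7640 CPM (7326 to 7965), and the 1570 with none held 574 CPM (535 to 615). The summed level of genes the rule did not use was thus higher in each further class of barcodes. The adipocyte list went the other way, with 35021 CPM in barcodes with 0 rule genes, 8451 with 2, 8181 with 3 and 4966 with 4 or more. A further 9 barcodes met both gene thresholds and were left out. Among labelled nuclei, 16 (1.02%) met the gene rule. They were 7 of Ad Ia, 6 of Ad Ib and 3 of Ad IIa, and held 1148 CPM (850 to 1518) of the macrophage list.

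**Figure D1:**
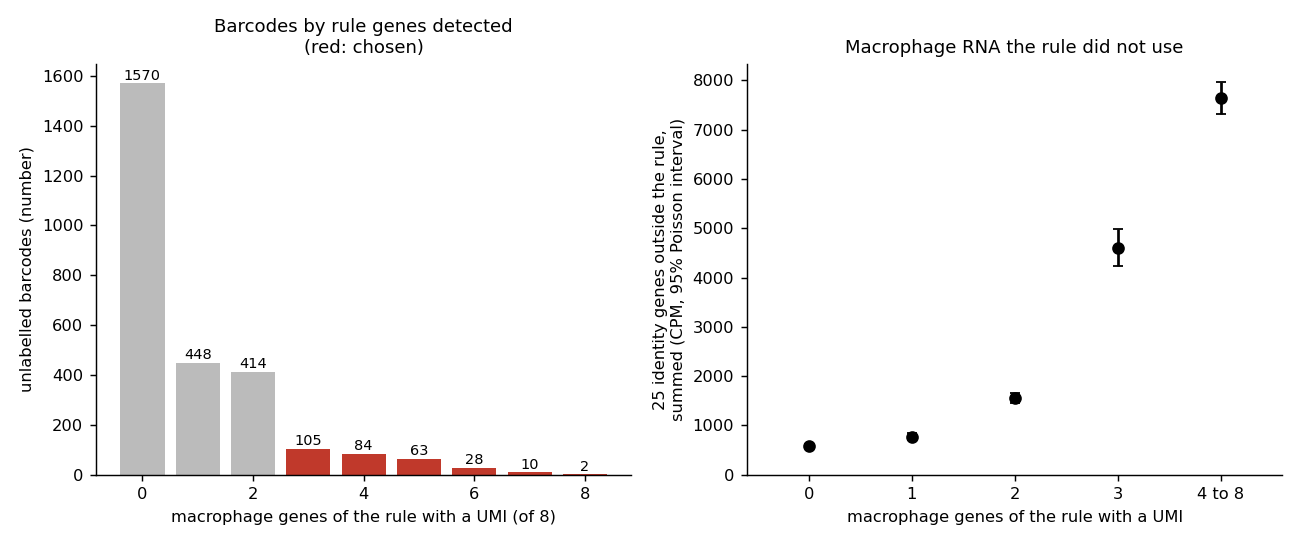
Left, bars count unlabelled low-mitochondrial barcodes under the fibroblast threshold by the number of the 8 rule genes with a UMI, with the chosen ones in red; right, the summed level of the macrophage identity list (CPM) in barcodes with 0, 1, 2, 3 and 4 or more rule genes, with exact Poisson 95% intervals. The level is 574 CPM with 0 genes, 1559 with 2, 4603 with 3 and 7640 with 4 or more.

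The markers given for the name, Mrc1, Adgre1, F13a1 and Csf1r, are part of the rule, so their presence is no check of it. At least 2 of these 4 were detected in 213 barcodes (72.9%), and none in 8. The name was therefore set against the 25 macrophage identity genes outside the rule, of which at least 3 were detected in 218 barcodes (74.7%), against 6.55% of the other unlabelled barcodes and 3.26% of labelled nuclei. These shares are unthinned, and the macrophage-rule barcodes were deeper (median 1078.5 UMIs against 785 and 966). The 292 barcodes were then clustered among themselves into 4 clusters. Cluster 2 (159 barcodes) and cluster 1 (76) had macrophage profiles, with 7615 and 8879 CPM of the macrophage list. Cluster 3 (21 barcodes) was led by Camk4, Themis and Tox, held 6475 CPM of a T-cell list and 1651 CPM of the macrophage list, and is T-cell-like. Cluster 0 (36 barcodes) was led by Prex2, Pdzd2, Adgrl4 and St6galnac5, held 2688 CPM of an endothelial and 10885 CPM of an adipocyte list against 1726 CPM of the macrophage list, and is not named. The label therefore does not hold for clusters 0 and 3 taken whole, 57 of the 292 barcodes, although 5 and 3 barcodes of cluster 0 and 2 of cluster 3 fell in the macrophage clusters of the library-wide clustering described below. At least 3 of the 25 identity genes were detected in 30.6% of cluster 0 and 14.3% of cluster 3, against 94.7% of cluster 1 and 83.0% of cluster 2. The cluster shares are unthinned too, at medians of 1894.5, 1328, 1450.5 and 955 UMIs in that order. All sums over the 292 include the 57 barcodes of clusters 0 and 3. Values over the 235 barcodes of clusters 1 and 2 alone, an alternative chosen after seeing the data, are given where they matter.

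The macrophage identity list (25 transcription factors, receptors and effectors of macrophages) had 23 genes that reached 20 UMIs, summed over the 2 groups, in the comparison with the other unlabelled barcodes. Of these, 22 were at least 2-fold higher in the macrophage-rule barcodes and 0 lower, with a median log2 ratio of 3.47. Over all 11094 genes tested, 12.9% were 2-fold higher and 20.7% lower, with a median of −0.09. Against labelled nuclei 22 of 23 genes were higher as well, with a median of 4.50, where 14.7% of 9927 genes were higher, 20.6% were lower and the median was −0.09. The list sum was 6707 CPM (6462 to 6960) in the macrophage-rule barcodes, 838 in the other unlabelled barcodes, 460 in labelled nuclei and 818 in the 186 unlabelled fibroblast barcodes that the fibroblast genes defined. Genes of the list were not used by the rule, but they were read in the same barcodes the rule chose. Members of clusters 1 and 2 alone had medians of 3.80 and 4.74.

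Among transcription factors of the list, Spi1, which encodes PU.1, had 47 UMIs against 30 (3.47, from 2.79 to 4.19) and 10 in labelled nuclei. Maf, which acts in macrophages and T cells, had 390 against 554 (2.33). Irf8, also used by dendritic and B cells, had 40 against 143 (1.01, from 0.45 to 1.51). The ratios thus ran from about 2-fold for Irf8, with an interval that reaches under 2-fold, to the much higher value of Spi1. Cebpb, which adipocytes use too, had 42 UMIs against 288 and a ratio whose interval spans 0 (0.07, from −0.45 to 0.53).

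The complement component C1q is assembled from the products of C1qa, C1qb and C1qc, which lie side by side on chromosome 4 (GRCm38.p6; C1qb 136880126 to 136886200, C1qc 136889801 to 136892936, C1qa 136895916 to 136898844). C1qa had 364 UMIs (868 CPM) against 217 (72.6 CPM), a log2 ratio of 3.58 (3.33 to 3.83). C1qb had 139 against 55 (4.16, from 3.71 to 4.65) and C1qc 114 against 57 (3.83). The 3 chains were thus high together. C1qa had 100 UMIs in labelled nuclei, with 28 (54.2 CPM) in Ad IIc, 4 (28.4 CPM) in Ad IIb, 32 (25.9 CPM) in Ad IIa, 24 (200 CPM) in Ad Ib and 12 (83.6 CPM) in Ad Ia.

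Lyz2, the macrophage lysozyme on chromosome 10 (117277541 to 117282272), had 272 UMIs (649 CPM) against 96 (32.1 CPM), a log2 ratio of 4.33 (4.00 to 4.69). Ctss, a protease that trims the MHC class II chaperone, had 250 against 190 (3.23, from 2.95 to 3.51). Tbxas1, thromboxane synthase, had 114 against 34 (4.56, from 4.02 to 5.18). Csf2ra, a chain of the GM-CSF receptor, had 39 against 11 (4.61), Fcgr3, an IgG receptor, 35 against 11 (4.46), and Itgam, which encodes CD11b, 45 against 19 (4.06). The genes of this list with the fewest UMIs, Fcgr1 with 8 against 5 and Cx3cr1 with 4 against 8, fell under the minimum and were not tested.

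Shares of barcodes with a UMI were compared after each barcode was thinned to 500 UMIs, which left out 0 barcodes, because depth differed between groups. The background is the share in Ad IIc nuclei, rich in adipocyte RNA, with a median of 714 UMIs, and Ad IIa nuclei, with a median of 1916. C1qa had a UMI in 33.6% of thinned macrophage-rule barcodes (53.4% unthinned), 4.34% of the other unlabelled barcodes, 2.89% of Ad IIc (3.95% unthinned) and 1.69% of Ad IIa. Lyz2 was at 17.8% (35.3% unthinned) against 1.87%, 1.52% and 0.508%. Mitf, a transcription factor of lysosomal genes, was at 26.0% (49.3% unthinned) against 4.07%, 0.912% and 3.05%. The shares of all 3 genes in the macrophage-rule barcodes lay above those in the other unlabelled barcodes, Ad IIc and Ad IIa. Shares in Ad Ia and Ad Ib, the labels that met the gene rule most often, are not given here. Adipoq, the adipocyte hormone adiponectin, was at 9.25% in macrophage-rule barcodes, 31.6% in the other unlabelled barcodes and 65.0% in Ad IIc.

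**Figure D2:**
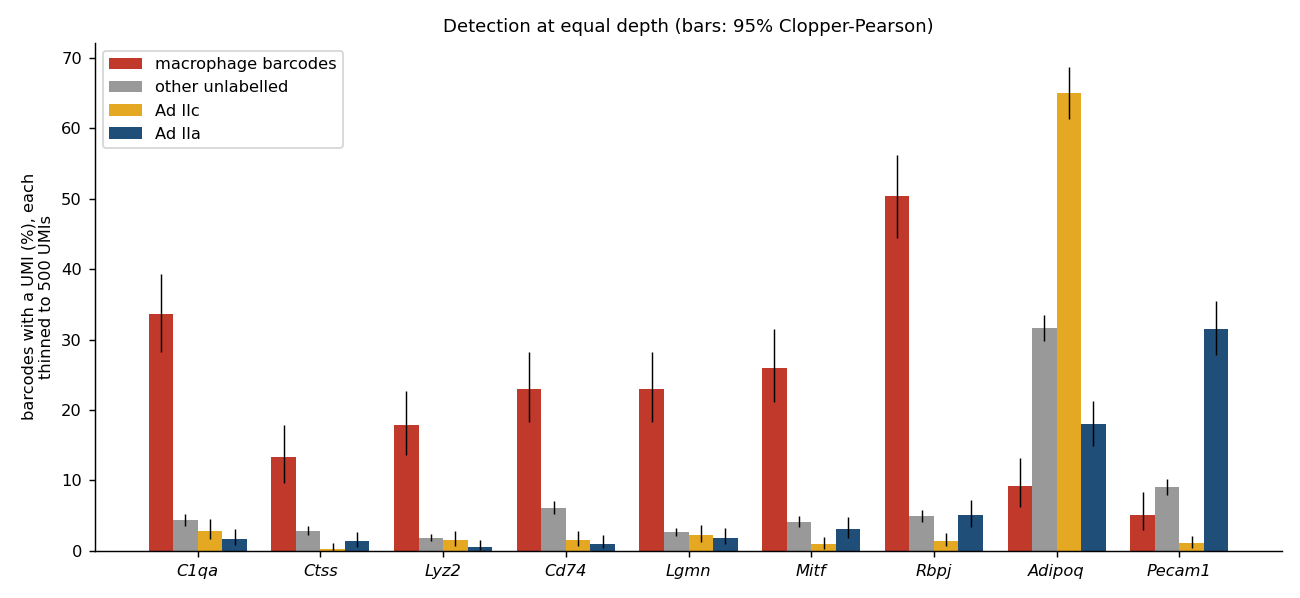
Percent of barcodes with a UMI of each gene (axis in percent) after thinning to 500 UMIs, in macrophage-rule barcodes, the other unlabelled barcodes, Ad IIc and Ad IIa nuclei, with exact binomial 95% intervals. Macrophage genes such as C1qa (33.6%) and Lyz2 (17.8%) are highest in the macrophage-rule barcodes, while Adipoq (65.0%) is highest in Ad IIc and Pecam1 (31.5%) in Ad IIa.

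Leading genes were ranked outside the rule genes, among those with at least 50 UMIs and 50 CPM in the macrophage-rule barcodes. Hpgds, which makes prostaglandin D2 in blood-derived cells and whose promoter is printed above, had 52 UMIs against 10, a log2 ratio of 5.16 (4.22 to 6.35). Pla2g7, which inactivates platelet-activating factor, had 67 against 13 (5.16, from 4.33 to 6.18), and Ptafr, the receptor of that factor, 56 against 20 (4.30). Kcnk13, a potassium channel, had 66 against 13 (5.13), and St18, a transcription factor, 108 against 30 (4.66). Other leading genes were Msr1, a scavenger receptor (60 against 19, 4.47), Ms4a7 (95 against 30, 4.48), Lilrb4a, an inhibitory receptor (82 against 23, 4.65), Cd300lb (60 against 19, 4.47) and Aoah, which inactivates bacterial endotoxin (133 against 50, 4.24). Against labelled nuclei the highest included Kcnk13 (66 against 2, 7.10), St18 (108 against 5, 6.67) and Cd84 (193 against 13, 6.20). Of the 25 leading genes of each comparison, 16 were in both, and both comparisons use the same macrophage-rule barcodes.

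At the other end, of the genes that reached 50 UMIs and 50 CPM in the other unlabelled barcodes, Hbb-bs, a haemoglobin chain, had the lowest ratio (39 UMIs against 15131, −5.75). That comparison level came mainly from red cell RNA in few barcodes: when the 4483 low-mitochondrial barcodes of the library were clustered, 1 cluster of 43 barcodes held 14504 Hbb-bs UMIs, and the remaining ones held 780 (141 CPM). Next lowest were Tmeff2, with 1 UMI against 302, and Srgap1, with 1 against 282, and Adarb1 had 2 against 393 (−4.46). The lowest genes relative to labelled nuclei were Sox17, Eln and Cmtm8, at 0 UMIs against 153, 135 and 115.

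**Figure D3:**
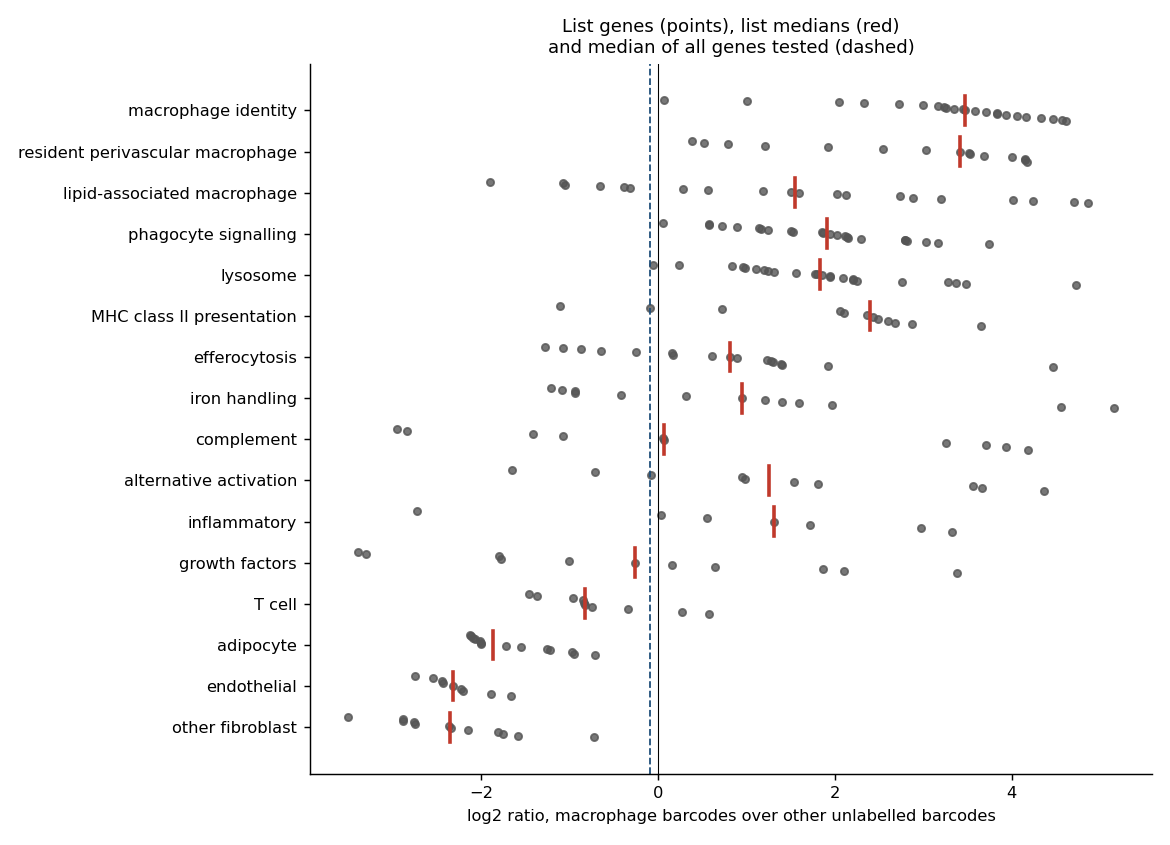
Each point is a gene's log2 ratio of CPM, macrophage-rule barcodes over the other unlabelled barcodes, for 16 gene lists; red marks are list medians and the dashed line is the median of all genes tested (−0.09). Rows follow a preset order and not a ranking. The macrophage identity (3.47) and resident perivascular (3.41) lists are the top rows. The adipocyte (−1.86), endothelial (−2.32) and other fibroblast lists are the bottom rows.

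Markers of resident perivascular macrophages were next. Of 18 genes, 15 were tested against the other unlabelled barcodes, 12 were 2-fold higher and 0 lower, with a median of 3.41. Against labelled nuclei 10 of 13 were higher and 0 lower (median 3.25). The hyaluronan receptor gene Lyve1 had 38 UMIs (90.6 CPM) against 15 (5.02 CPM), a log2 ratio of 4.15 (3.28 to 5.14), and 11 in labelled nuclei. Stab1, a scavenger receptor, had 145 against 58 (4.15), Cd209f, a lectin, 26 against 10 (4.17), and Siglec1, a sialic acid receptor, 32 against 14 (4.00). Folr2, a folate receptor, had 23 against 14 (3.53) and Pf4, a chemokine, 26 against 16 (3.52). Genes that stromal cells also express showed small ratios, with Igf1 at 0.38 (163 against 892 UMIs), Fcgrt at 0.52 (54 against 270) and Gas6, a ligand of MERTK, at 0.80 (60 against 248). Timd4 (8 against 7 UMIs), Vsig4 (5 against 0) and Ccl24 (12 against 7) were not tested. With a limit of 5% mitochondrial UMIs on both sides the list medians were 1.24 and 1.79.

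Lipid-associated macrophage genes split. Of 21 genes, 20 were tested, 12 were higher and 3 lower against the other unlabelled barcodes, with a median of 1.55, and 12 were higher and 3 lower against labelled nuclei (1.57). Trem2, the lipid receptor, had 34 UMIs (81.1 CPM) against 8, a log2 ratio of 4.85 (3.78 to 6.24). Atp6v0d2, a subunit of the proton pump of phagocyte lysosomes, had 118 against 32 (4.70), Spp1, osteopontin, 46 against 17 (4.24), and Itgax, which encodes CD11c, 30 against 13 (4.01). These genes of the list had few UMIs outside the macrophage-rule barcodes. Gpnmb had 89 against 69 (3.20), Lgals3, galectin-3, 217 against 210 (2.88), Mmp12, macrophage elastase, 68 against 73 (2.73), and Abca1, the cholesterol exporter, 436 against 765 (2.02). Genes that adipocytes express at high levels did not follow. Lpl, lipoprotein lipase, had 675 UMIs (1609 CPM) against 6304 (2109 CPM), a log2 ratio of −0.39. Cd36, the fatty acid carrier, was at −1.05, Fabp5 at −0.66 and Apoe at 0.28. The list sum was 8178 CPM in macrophage-rule barcodes, 7692 in the other unlabelled barcodes and 13162 in Ad IIc. Trem2 had a UMI in 0.685% of thinned barcodes (0.083% to 2.45%), a share near that of 1 UMI, and in 5.82% unthinned. After thinning the list medians were 0.67 and 0.11, over only those genes that still reached 20 UMIs in the thinned sums. Thinned medians of other lists below were taken the same way, so their genes can differ from those tested unthinned.

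Antigen presentation through MHC class II was also high. Of 12 genes tested, 9 were higher and 1 lower than in the other unlabelled barcodes (median 2.40), and 9 of 9 were higher than in labelled nuclei (4.17). H2-Aa had 170 UMIs (405 CPM) against 189 (63.2 CPM), a log2 ratio of 2.68 (2.37 to 2.99). Cd74, the invariant chain, had 364 (868 CPM) against 463 (155 CPM), with a ratio of 2.49, and Ciita, the master regulator of these genes, 121 against 208 (2.05). The costimulatory Cd80 had 18 against 10 (3.65) and Cd86 34 against 57 (2.10). The chains H2-Ob (2 against 38, −1.11) and H2-Oa (0 against 8, not tested), used mainly by B cells, did not move with them. The list summed to 2284 CPM, 439 in the other unlabelled barcodes, 105 in Ad IIc, 49.7 in Ad IIb, 66.3 in Ad IIa, 665 in Ad Ib and 571 in Ad Ia. Cd74 had a UMI in 22.9% of thinned macrophage-rule barcodes (37.7% unthinned), 6.09% of the other unlabelled barcodes and 1.52% of Ad IIc.

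Lysosomal genes were high as a group. Of 24 genes, 19 were 2-fold higher and 0 lower in each comparison, with medians of 1.83 and 1.96. Mitf, a transcription factor of the family that drives lysosome genes, had 430 UMIs (1025 CPM) against 315 (105 CPM), a log2 ratio of 3.28 (3.07 to 3.50), and its relative Tfec 31 against 8 (4.72). The proteases Lgmn (236 against 151, 3.48) and Ctsc (242 against 167, 3.37) also had large ratios. The lowest were Neu1, a sialidase, at 0.24 (11 against 69) and Npc2, which carries cholesterol out of lysosomes, at −0.06 (86 against 640). The list summed to 9573 CPM (9280 to 9874), 2430 in the other unlabelled barcodes and 2062 in labelled nuclei.

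Genes of phagocyte signalling and adhesion were high too, with 19 of 24 higher and 0 lower (median 1.90) than in the other unlabelled barcodes, and 21 of 22 higher than in labelled nuclei (3.95). Rbpj, the nuclear effector of Notch, had 771 UMIs (1838 CPM) against 411 (138 CPM), a log2 ratio of 3.74 (3.57 to 3.92). Rbpj had a UMI in 50.3% of thinned macrophage-rule barcodes (66.8% unthinned), 4.95% of the other unlabelled barcodes and 1.37% of Ad IIc. Syk, the kinase behind Fc receptors, had 183 against 160 (3.03), and Fgr 24 against 19 (3.16). Arhgap15 (0.57) and Fli1 (0.05), shared with lymphocytes or endothelium, had the smallest ratios of this list. Lymphocytes express several genes of this list, which summed to 14770 CPM in the T-cell-like cluster 3, 15482 in cluster 1, 13909 in cluster 2 and 6088 in cluster 0.

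Uptake and iron genes were mixed. Of 17 efferocytosis genes tested, 7 were higher and 2 lower (median 0.82). Msr1 was highest, Lrp1, a receptor for debris, was at 1.40 (144 against 391) and Scarb1, the HDL receptor, at −1.27 (21 against 370). Of 13 iron genes, 6 were higher and 2 lower (0.95), but the median was −0.39 after thinning. The list also held Hpgds, a prostaglandin enzyme described above, which is 1 of those higher in each comparison. Against labelled nuclei 7 of 13 were higher and 0 lower (1.29, and −0.52 after thinning). Slc11a1, which exports iron from phagosomes, had 21 UMIs against 6 (4.56), and Hmox1, haem oxygenase, 20 against 37 (1.96). The ferritin chains differed little, with Ftl1 at 0.32 and Fth1 at −0.42. The iron exporter Slc40a1 had 11 against 8 UMIs and was not tested.

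Polarisation genes gave few counts. Of 20 inflammatory genes 7 were tested, and 4 were higher and 1 lower (median 1.31, and 2.38 after thinning). Ccl8, a chemokine, had 52 UMIs against 37 (3.32), Irf5 31 against 28 (2.98) and Tlr4 33 against 72 (1.72). The classical cytokines were near 0, with Il1b at 3 UMIs, Tnf at 2, Il6 at 0 and Il1a at 0 in the macrophage-rule barcodes, and Nos2 at 0 against 23. With 0 UMIs, up to 3 counts in 419393 are allowed. Of 10 genes of alternative activation tested, 5 were higher and 1 lower (1.26). The lectins Mgl2 (27 against 9, 4.37) and Clec10a (85 against 51, 3.56) and the secreted Retnla (135 against 76, 3.66) were high, Arg1 had 6 UMIs against 2 and Il10 5 against 0. Pparg, which adipocytes express strongly, was at −0.71.

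Receptors of the complement fragments were high while most plasma components were not. C3ar1 had 34 UMIs against 13 (log2 ratio 4.19), C5ar1 39 against 18 (3.93), and Cfp, properdin, 48 against 26 (3.71). C3 (12 against 691, −2.96) and Serping1 (2 against 127, −2.84), made by stromal cells, were low. Over the list 4 of 10 genes were higher and 4 lower, with a median of 0.07 (−0.03 with TMM scaling and after thinning). Against labelled nuclei 5 of 9 were higher and 2 lower, with a median of 1.06 (−0.17 after thinning). Of 11 growth factor genes, 3 were higher and 5 lower (−0.26, −1.10 after thinning, and −1.94 over clusters 1 and 2 alone), led by Pdgfc, a ligand of the receptor PDGFRA (113 against 77, 3.38), while Vegfb (3 against 246, −3.30) was low. Of 4 noradrenaline genes tested 1 was higher and 2 were lower, Maob (4 against 112, −1.81) and Maoa (4 against 72, −1.18). The transporter Slc6a2 had 0 UMIs against 4.

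Monocyte genes were mixed, with 5 of 11 higher and 4 lower (median 0.79, and −0.28 after thinning). Against labelled nuclei 5 of 8 were higher and 1 lower (2.86). Ccr2, the chemokine receptor of monocytes, had 55 UMIs against 126 (1.64) and 13 in labelled nuclei. Ly6c2 had 4 against 18, and Spn, a marker of non-classical monocytes, 0 against 31. Of 8 proliferation genes tested 1 was higher, Mki67 with 20 against 64 (1.18), a share near the 12.9% of all genes, and Top2a was at 0.20 (17 against 108). Against labelled nuclei 3 proliferation genes were tested and 2 were higher (2.85), and the median was −0.81 with a limit of 5% mitochondrial UMIs. At least 3 proliferation genes were detected in 3 barcodes, all of cluster 1. Among 12 immediate early and stress genes tested 3 were higher, Atf3 (28 against 20, 3.31), Junb (57 against 95, 2.10) and Fos (24 against 41, 2.07), and 1 was lower.

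RNA of other cell types was present in these sums. Adipocyte genes were lower than in the other unlabelled barcodes for 11 of 14 (median −1.86) and lower than in labelled nuclei for 14 of 14 (−1.86), but the list still summed to 5954 CPM (5723 to 6192), and 144 of 292 barcodes (49.3%) had UMIs of at least 3 adipocyte genes. That share was 79.1% in the other unlabelled barcodes and 93.7% in labelled nuclei. Endothelial genes summed to 637 CPM against 2962 and 5963, and 9 of 9 tested genes were lower (−2.32) than in the other unlabelled barcodes. T-cell genes summed to 472 CPM against 833 in the other unlabelled barcodes and 124 in labelled nuclei, with a median of 3.13 against the latter over 5 genes, and 13 of the 16 barcodes with at least 3 T-cell genes were in cluster 3. B-cell genes summed to 434 CPM against 427 and 139.

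Defining markers of several other myeloid and stromal types were at or near 0. Among 8 neutrophil genes, Ly6g, Cxcr2, Mmp8 and Retnlg were at 0 UMIs, S100a8 at 1 and S100a9 at 2, and Csf3r, which macrophages can express, at 43 against 8. Ly6g, Cxcr2 and Mmp8 were also at 0 in the other unlabelled barcodes and in labelled nuclei, so they do not set these barcodes apart. The list summed to 47 UMIs, 112 CPM against 9.37 in the other unlabelled barcodes and 10.2 in labelled nuclei, most of it Csf3r. Of 8 mast cell genes 4 were at 0, and the list summed to 9.54 CPM. The dendritic cell genes Flt3, Clec9a and Xcr1 had 1, 1 and 0 UMIs, while the list of 9 summed to 51 UMIs (122 CPM, against 213 in the other unlabelled barcodes), of which Zbtb46 had 32. Of 8 mesothelial genes 5 were at 0 (7.15 CPM), and of 7 epithelial genes 5 (7.15 CPM). Fibroblast genes other than those of the rule were not near 0, with 370 UMIs (882 CPM against 3062 in the other unlabelled barcodes). They were lower for 11 of 12, with a median of −2.35. The rule left out barcodes with 3 or more of its fibroblast genes, and the other unlabelled barcodes include the 186 fibroblast barcodes. This difference is therefore no check of the rule. Over the 148 macrophage-rule barcodes with fewer than 3 adipocyte genes, the medians against the other unlabelled barcodes were 3.82 for identity, 3.40 for resident, 2.01 for lipid-associated, 2.60 for MHC class II and 2.05 for lysosomal genes. The part of endothelial and lymphocyte RNA was not tested, other than by the sums over clusters 1 and 2.

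**Figure D4:**
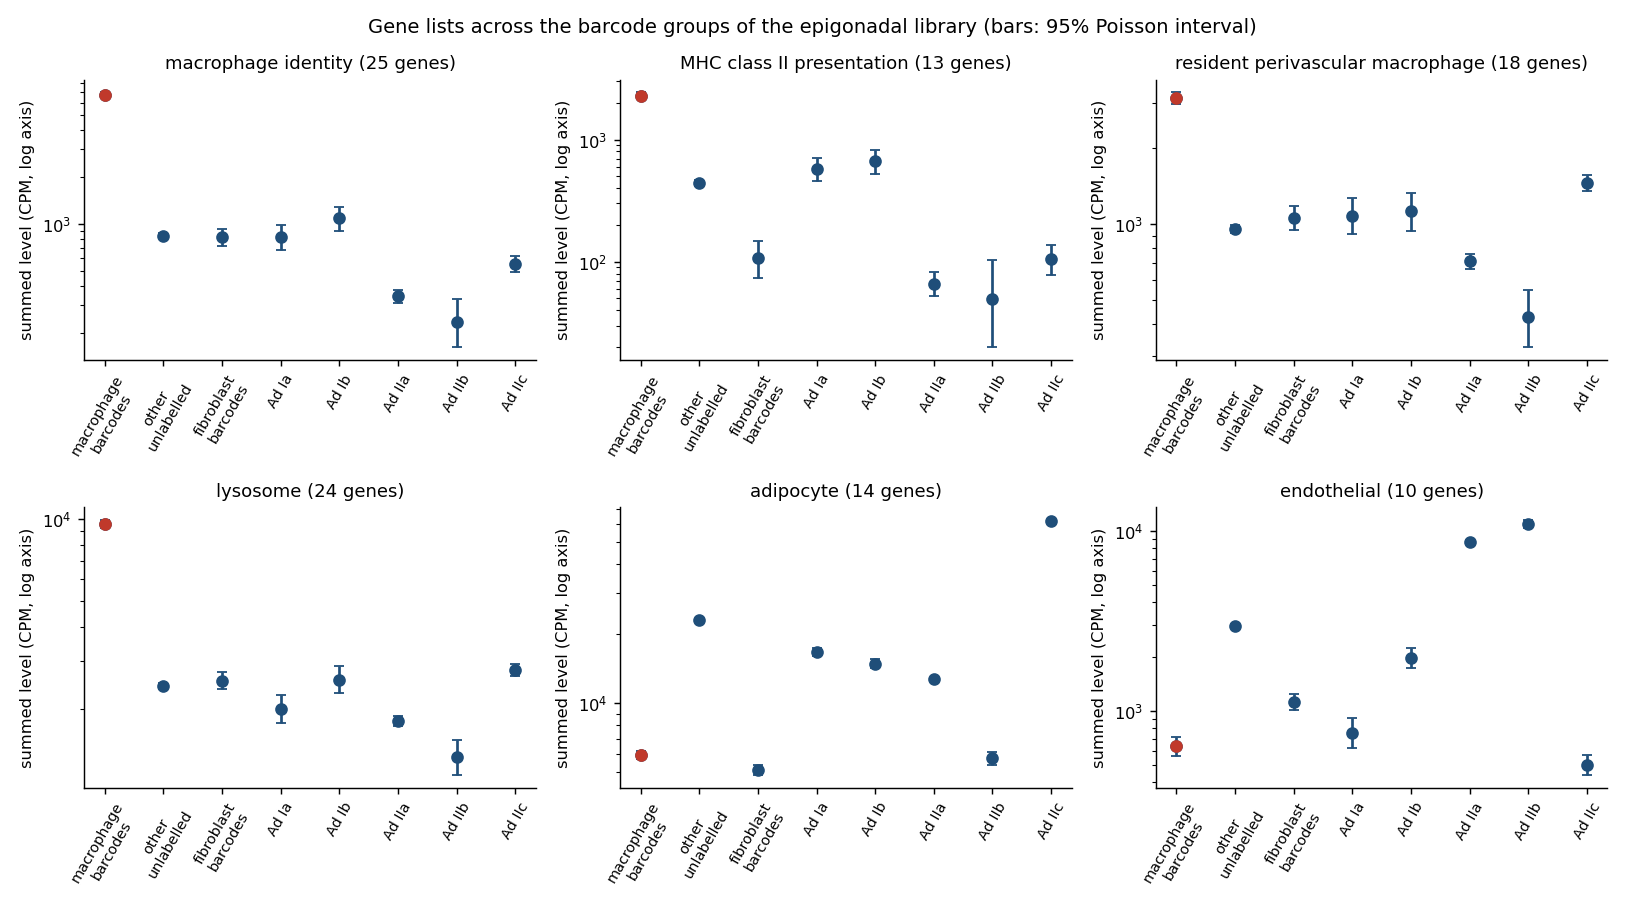
Summed level of 6 gene lists (CPM, log axes) in 8 groups: macrophage-rule barcodes, the other unlabelled barcodes, fibroblast barcodes and the 5 labels, with exact Poisson 95% intervals. The macrophage identity list reaches 6707 CPM in the macrophage-rule barcodes, where the adipocyte list is at 5954 CPM against 61646 in Ad IIc, and the endothelial list is at 637 against 8674 in Ad IIa.

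The labels differed as comparison groups. Median log2 ratios of the identity list were 4.63 over Ad IIc, 4.93 over Ad IIb, 4.97 over Ad IIa, 2.64 over Ad Ib and 3.0 over Ad Ia. Mrc1 stood at 29.1 CPM in Ad IIc, 7.11 in Ad IIb, 15.4 in Ad IIa, 166 in Ad Ib and 125 in Ad Ia, on 15, 1, 19, 20 and 18 UMIs. Zeb2, a transcription factor of macrophages and other cells, had 1554 UMIs (3705 CPM) in the macrophage-rule barcodes, 453 CPM in Ad IIc, 132 in Ad IIa, 1547 in Ad Ib and 2465 in Ad Ia. Ad Ia and Ad Ib, the labels whose nuclei met the gene rule most often (6.60% and 3.95%), thus held more of these transcripts than the Ad II labels, at levels under those of the macrophage-rule barcodes.

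Clusters 1 and 2 were described side by side. The genes that separate them also made the clusters, so their ratios are no test. Cd163, F13a1, Mrc1 and Adgre1 are also rule genes and so helped choose the barcodes. Both Dock2 and Ptprc, the leukocyte genes of the rule, were detected in 72.4% of cluster 1 and 28.3% of cluster 2. Cluster 2 had 159 barcodes, a median of 955 UMIs and 7.19% mitochondrial UMIs, and cluster 1 had 76 barcodes, 1450.5 UMIs and 4.93%. Cluster 2 is resident-perivascular-macrophage-like by the marker lists, with 5576 CPM of that list against 2124 in cluster 1. Cluster 1 is lipid-associated-macrophage-like, with 12504 CPM of that list against 5814 in cluster 2. Cluster 2 also held more adipocyte RNA, 8326 against 1751 CPM, and 49.1% of its barcodes had at least 3 adipocyte genes, against 34.2% in cluster 1. Without the barcodes that had 3 or more adipocyte genes, clustering again gave a cluster led by Ccl8 and Plekhg5 (78 barcodes, 5827 CPM of the resident list) and one led by Spp1 and Cadm1 (60 barcodes, 2589 CPM). Their lipid-associated lists summed to 5106 and 12933 CPM. The part of depth in the split was not tested.

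In cluster 2, Lyve1 had 37 UMIs against 0 in cluster 1, Cd209f 25 against 0, Ccl8 51 against 0, and C6, a terminal complement component, 28 against 0. Cd163 had 142 against 4, a log2 ratio of −5.06 (−7.12 to −3.83) for cluster 1 over cluster 2, and F13a1 449 against 41 (−3.51, from −4.02 to −3.06). Mrc1 was lower in cluster 1 by less, with 133 against 384 UMIs (−1.60, from −1.90 to −1.31), as were Stab1 (−2.35), Rbpj (−2.29) and Maf (−1.77). Of 13 resident genes tested, 10 were lower in cluster 1 and 0 higher (median −1.95), where 12.9% of 3096 genes were higher and 11.9% lower over all (median 0.02).

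In cluster 1, Atp6v0d2 had 113 UMIs against 1 (log2 ratio 6.17), Mmp12 65 against 1 (5.38), Spp1 45 against 0, Itgax 27 against 0, and Dcstamp, needed for macrophage fusion, 25 against 0. Gpnmb had 80 against 6 (3.56), Lgals3 191 against 19 (3.22), Cd9 25 against 2 (3.28) and Trem2 30 against 4 (2.69, from 1.33 to 4.80). Of 18 lipid-associated genes tested, 13 were higher in cluster 1 and 0 lower (median 1.72). Some genes shared with adipocytes went with the others here, with Lpl at 1.70 (441 against 129) and Plin2, a lipid droplet coat protein, at 1.73 (127 against 36). Pparg was at 2.19 (88 against 18), while Apoe differed little, as given below. Of 11 adipocyte genes tested, 10 were lower in cluster 1 (−2.09). Lysosomal genes were higher for 7 of 20 and lower for 1, with Ctsl at 2.18 and Psap at 2.42. Immediate early and stress genes were higher for 4 of 6 and lower for 0 (1.11). MHC class II genes were higher for 5 of 7 (1.32), and the monocyte genes tested, Ccr2 (40 against 14, 1.41), Fn1 (64 against 13, 2.19) and S100a4 (33 against 4, 2.83), were higher for 3 of 3. At resolution 1, however, a separate cluster of 42 barcodes with Ccr2 among its leading genes held 1446 CPM of the monocyte list and 4410 of the MHC class II list, against 694 and 2973 in the 47 barcodes led by Dcstamp, Mmp12 and Spp1. Their lipid-associated lists summed to 4999 and 15170 CPM.

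Several macrophage genes differed little between the clusters. Adgre1 had 109 UMIs in cluster 1 and 101 in cluster 2 (0.04, from −0.36 to 0.44), Apoe 262 and 236 (0.08), and C1qb 79 and 56 (0.42). The identity list as a whole leaned towards cluster 1, with a median of 0.38 over 23 genes, 7 of them higher there and 1 lower. Over all 3096 genes 12.9% were higher and 11.9% lower, with a median of 0.02. The erythroid list summed to 1208 CPM in cluster 1 and 269 in cluster 2, but 1 barcode of each had at least 3 erythroid genes, and at resolution 0.3 the order turned, with 140 CPM in the cluster led by Dcstamp and 1186 in that led by Ccl8.

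**Figure D5:**
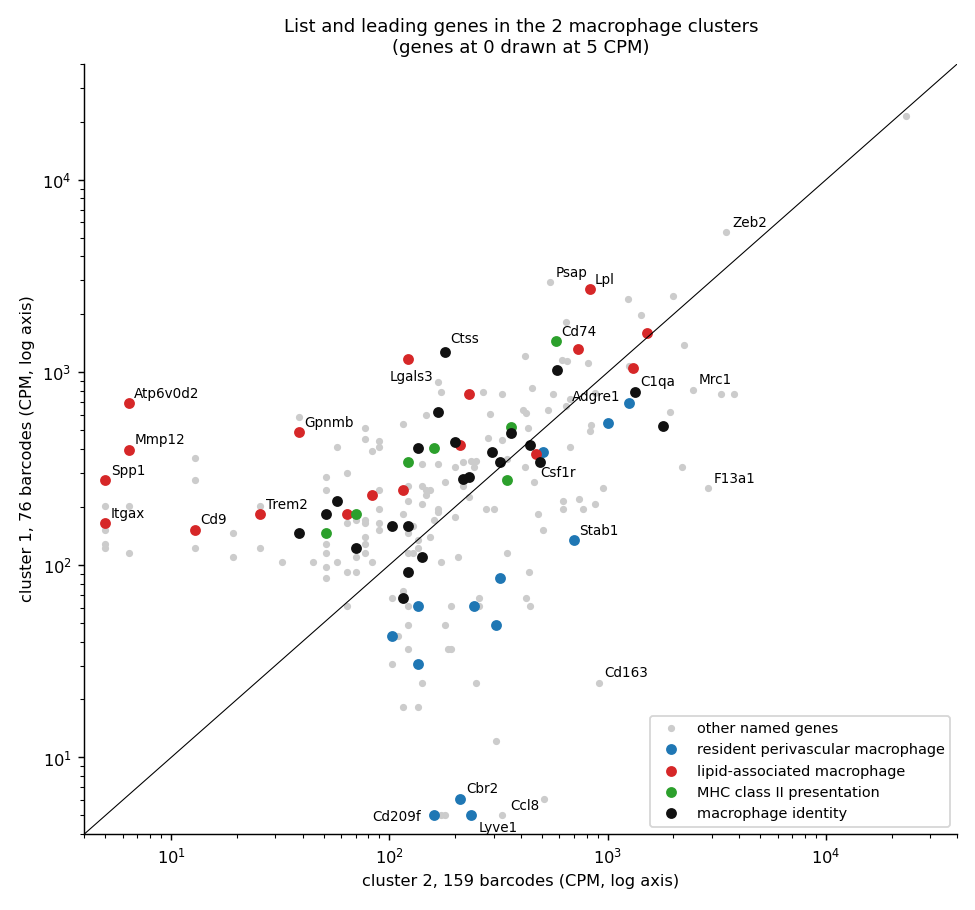
Levels of list and leading genes in cluster 2 (x axis, 159 barcodes) and cluster 1 (y axis, 76 barcodes), in CPM on log axes, with genes at 0 drawn at 5 CPM and the diagonal marking equal levels. Atp6v0d2, Mmp12 and Spp1 lie far above the diagonal, Cd163, F13a1, Cd209f and Lyve1 far below, and Adgre1 on it. Cd163, F13a1 and Adgre1 are genes of the rule that chose the barcodes.

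When all 4483 low-mitochondrial barcodes of the epigonadal library were clustered, labelled nuclei included, 174 of the 292 barcodes fell in 1 cluster of 231 barcodes that held 5 labelled nuclei, and 67 in another of 127 barcodes. These clusters held 7326 and 7357 CPM of the identity list. The leading genes of the second included the dendritic cell genes Flt3 (31 UMIs) and Clec9a (21 UMIs). All 292 macrophage-rule barcodes together held 1 UMI of each, so these UMIs lay mainly in the cluster's other barcodes. Most of the remaining macrophage-rule barcodes lay in a cluster of 377 barcodes (25) and one of 305 with lymphocyte genes (14). All 25 were of cluster 0 and all 14 of cluster 3. The cluster of 377 held 238 labelled nuclei. Slc1a3, at 5324 CPM in cluster 0, was among the leading genes of both that cluster and cluster 0.

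Against the 186 fibroblast barcodes of the same library, the identity list was higher for 21 of 23 genes (median 4.73), where 19% of 6126 genes were higher and 15.3% lower. Other fibroblast genes were lower for 12 of 12 (−4.91), while adipocyte genes differed little, with 1 of 12 higher and a median of 0.29. Both groups were chosen by the rule's macrophage and fibroblast genes, so their differences in related genes are no check of the rule. In the thymic library the same gene rule chose 121 of 929 unlabelled low-mitochondrial barcodes, and 117 of them (96.7%) had both Dock2 and Ptprc, against 46.9% of the epigonadal ones. Only 7 (5.79%) had at least 2 of Mrc1, Adgre1, F13a1 and Csf1r. These thymic barcodes held 18541 CPM of the T-cell list and 638 CPM of the identity list, close to the 578 CPM of the other thymic barcodes. The identity list was higher in the epigonadal barcodes for 22 of 23 genes (median 3.50, and 0.78 where at least 4 of the 8 genes were needed), a comparison with mainly T-lineage RNA, where 25.5% of 5256 genes were higher and 20.1% lower. C1qa had 364 UMIs there against 1.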

How the data were processed

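Nuclear RNA was measured in 1 epigonadal library, with 1 thymic library used for a single comparison. Per the file headers, cellranger 7.2.0 made the deposited matrices, which hold raw UMI counts for 32285 genes. Cell Ranger ARC 2.0.2, Seurat 5.1.0 and mm10 are named in the submitters' processing notes. No annotation or intron handling is given in the sources used here. Metadata deposited by the authors give each labelled nucleus its label and its percent of mitochondrial UMIs. Labels and other deposited annotation were used as given. The members and gene lists were chosen with earlier results of these data known.

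UMIs were summed per group and scaled to nuclear-encoded UMIs. Genes reaching 20 UMIs, summed over the 2 groups, were tested against a 2-fold difference, and no p-value was computed because each group was 1 library. Levels have Poisson, ratios binomial and shares Clopper-Pearson 95% intervals. Named genes were all of the rule, identity, resident, lipid-associated and MHC class II lists, of other lists up to the 4 highest and 2 lowest ratios and type-defining genes at 0, each cluster's top 10 genes, and the 25 highest and 10 lowest genes that reached 50 UMIs and 50 CPM in the higher group, without mitochondrial, ribosomal, predicted and rule genes. Arg1, Ctsl, Fth1, Ftl1, Il10, Il1a, Il1b, Il6, Ly6c2, Psap, S100a8, S100a9, Slc40a1, Slc6a2, Tnf and Top2a were added after their values were seen. Some genes of the lists are not reported here. Clustering used scanpy 1.11.5 (2000 variable genes, 20 components, 15 neighbours, Leiden resolution 0.5 for the 292 barcodes and 1 for the library's low-mitochondrial barcodes). Scrublet, at an expected doublet rate of 0.06, set a score threshold of 0.576 against a median score of 0.0672. It called 0 doublets among 4483 barcodes, which does not show that doublets were absent. No barcode was removed as a doublet. Summing and intervals were tested on simulated data. Alternatives were edgeR 4.0.16 TMM and DESeq2 1.42.0 median-of-ratios scaling, thinning, other marker, depth and mitochondrial limits, pseudocounts, minimums and comparison groups. The tools were R 4.3.3, Python 3.11.15, numpy 2.4.6, scipy 1.17.1, pandas 2.3.3, igraph 0.11.9 and matplotlib 3.10.9.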

Additional observations from a re-analysis of the deposited data

Results flagged for a closer look

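Among the 560 unlabelled barcodes with at least 20% mitochondrial UMIs, which the comparisons above did not use, 47 met the gene rule. They had a median of 26.2% mitochondrial UMIs and held 342 UMIs of the macrophage identity list, 7010 CPM (6287 to 7794), against 1294 CPM in the other 513 high-mitochondrial barcodes. They stood out because this signal lay outside the barcodes compared and above the level of the high-mitochondrial barcodes that did not meet the rule. Mrc1 had 68 UMIs in them (1394 CPM), C1qa 51 (1045 CPM), Lyz2 39 (799 CPM), Cd163 21 (430 CPM), Lyve1 4 (82.0 CPM) and Spp1 0. Mrc1 and Cd163 were part of the rule. The cause was not tested.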

How the results depend on the processing

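Directions of the identity and resident lists held under every alternative run, with medians between 2.95 and 4.34 and between 1.24 and 3.87 against the other unlabelled barcodes, and between 2.64 and 5.02 and between 1.19 and 3.74 against labelled nuclei. A value counted as reversed when its sign turned and its main ratio was at least 2-fold with an interval that left out 0. Smaller values could change sign without being counted, as did the iron handling and monocyte medians against the other unlabelled barcodes after thinning. Single genes checked were 97 in each comparison, the leading genes and those of the identity, resident, lipid-associated and MHC class II lists. Of their values, 0 of 1494 reversed in the first comparison and 4 of 1844 in the second. A further 267 and 396 moved outside the main interval. Where values moved, the cause was not tested unless the alternative changed the barcodes or genes counted. Against the other unlabelled barcodes the identity median was 4.34 with a 5% mitochondrial limit, 2.95 with 2 of 8 genes, and 4.22 against barcodes with no rule gene. The resident median was 1.24, 2.35 and, with a minimum of 50 UMIs, 1.92. Genes 2-fold higher numbered 2356 with a pseudocount of 5 (1429 before) and 6015 with a minimum of 1 UMI, and lower 678 with a pseudocount of 5 (2295 before). Against labelled nuclei the identity median was 3.70 with 2 of 8 genes, 3.0 against Ad Ia and 2.64 against Ad Ib. The resident median was 2.12 thinned, 1.79 with the 5% limit, 2.28 with 2 of 8 genes, 3.74 and 1.19 with minimums of 1 and 50, 2.53 against Ad Ia and 1.43 against Ad Ib. Genes higher numbered 4498 and 934 with minimums of 1 and 50 and 2624 against Ad IIc (1463 before), and lower 863 with a pseudocount of 5, 750 against Ad Ia, 624 against Ad Ib and 774 against Ad IIb (2048 before). Reversed against labelled nuclei were the list medians of iron handling (−0.52) and complement (−0.17) after thinning, of proliferation with the 5% limit (−0.81), without barcodes of 3 or more adipocyte genes (−0.55) and with a minimum of 50 (−0.0041), and of complement with a minimum of 50 (−0.029), as were Lgals1 against Ad Ia (0.24) and Ad IIb (1.49), Cd9 against Ad IIb (−0.39) and Fbxl7 against Ad IIc (0.59). The rule chose 187 barcodes with 4 genes, 706 with 2, 102 under 5% mitochondrial, 171 with at least 1000 UMIs and 148 with fewer than 3 adipocyte genes. The thymic comparison's identity median was 0.78 with 4 genes. The cluster led by Spp1 and Atp6v0d2 had 47 barcodes at resolution 1 (76 before). Clustered without barcodes of 3 or more adipocyte genes, the cluster with Lyve1 or Cbr2 among its leading genes had 78 (159 before) and clusters under 3000 CPM of the identity list 10 (57 before). TMM scaling moved the median of all genes to −0.19 and −0.25, median-of-ratios scaling to −0.12 and −0.20 (−0.09 before). It was 0.40 and 0.30 with a pseudocount of 5, 0.28 and 0.29 with a minimum of 1 UMI, and 0.13, 0.17, 0.12 and 0.41 against Ad Ia, Ad Ib, Ad IIb and Ad IIc. In clusters 1 and 2 alone, chosen after seeing the data, medians against the other unlabelled barcodes were 3.80 identity, 3.53 resident, 1.84 lipid-associated, 2.65 MHC class II, −1.94 growth factors (−0.26 before) and −0.06 complement (0.07 before). No paired analysis was possible because each group was 1 library. Removal of Scrublet doublets was not run because 0 were called. Depth limits genes with few UMIs, such as Trem2.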
